A study of Mus musculus with 9 samples.

Results

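Small noncoding RNAs other than microRNAs are carried in the exosomes of cultured macrophages, and the families described here are those that the deposited tables place in the class "Rfam other sncRNA". Rfam is a catalogue of RNA families, each defined by an alignment of known members and a structure model. A family was included when any of the 9 tables listed it in that class, whatever its level, and 288 of the 14210 rows in the joined tables were included; the tables hold 14 RNA classes in all. The libraries came from exosomes of RAW264.7, a mouse macrophage line obtained from a tumour induced with Abelson murine leukaemia virus. The 3 groups were untreated cells, cells exposed to silica for 24 h and cells exposed to silica for 48 h, with 3 libraries each, called independent repetitions by the series' design text. All 3 groups grew in medium with fetal bovine serum, and exosomes were collected by ultracentrifugation, so that serum vesicles may be present in every group. The labels give no silica dose.

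The most counted of these families are RNA scaffolds of ribonucleoprotein particles. Y RNAs are short hairpin transcripts of RNA polymerase III that bind the Ro60 and La proteins, the signal recognition particle RNA carries ribosomes to the endoplasmic reticulum, 7SK RNA holds the elongation factor P-TEFb inactive, and vault RNAs belong to the large vault particle. Y RNA, vault RNA and signal recognition particle RNA, or fragments of them, are known components of extracellular vesicles and of cell culture medium. Rfam also holds families of bacteria, viruses and other organisms, and a small RNA read placed in such a family shows similarity to its model, not the organism the read came from.

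The genes that stand behind the main animal families are shown for reference, because a family count adds up all reads placed in a family and does not separate its genes. The mouse has a pair of Y RNA genes, Rny1 and Rny3, both annotated as single-exon noncoding RNA genes. Rny1 lies at chr6:47788069-47788180 on the minus strand and Rny3 at chr6:47781624-47781725 on the plus strand, 6344 bases apart (GENCODE M21, GRCm38). The 2 sequences, printed 5′ to 3′ as DNA, match at 81 of 112 aligned columns (72.3% identity), and capitals mark the 3 runs of at least 8 identical bases that they share, near the 5′ end, in the loop region and near the 3′ end.
Rny1: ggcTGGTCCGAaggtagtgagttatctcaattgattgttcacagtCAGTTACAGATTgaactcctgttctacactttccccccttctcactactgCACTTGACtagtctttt
Rny3: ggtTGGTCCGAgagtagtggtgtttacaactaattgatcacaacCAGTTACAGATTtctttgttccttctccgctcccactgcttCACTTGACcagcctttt
The next sequence is that of mascRNA, the tRNA-like RNA cut from the 3′ end of the long noncoding RNA Malat1, shown because the tables count it as a family of its own apart from Malat1. It lies at chr19:5795924-5795981 on the minus strand (RefSeq, GRCm38), inside Malat1, and has 58 bases.
Mascrna: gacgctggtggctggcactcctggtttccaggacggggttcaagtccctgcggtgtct

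The libraries held between 7.71 M and 18.7 M counted reads (M for 1000000), and levels are given as RPM, the reads per 1000000 counted reads of the library. Because the scale is relative, a change in another RNA class moves these values too, and fewer vesicles cannot be told apart from less RNA per vesicle. Known mature microRNA made up 280063 to 446618 RPM of a library, lowest in silica 24 h library 3 and highest in silica 48 h library 2. All 6 macrophage and haematopoietic marker microRNAs were listed in every library, at a summed 30764 to 40360 RPM in untreated, 18067 to 29641 RPM in silica 24 h and 32435 to 49221 RPM in silica 48 h libraries. This sum lay mostly in miR-146a-5p and miR-21a-5p, at untreated means of 20316 and 15409 RPM. The untreated mean was 308 RPM for miR-155-5p, and only 41.3, 34.7 and 36.2 RPM for miR-223-3p, miR-142a-3p and miR-142a-5p. The 3 serum and red blood cell markers were also listed in every library, at a summed 165 to 729 RPM in untreated, 891 to 1413 RPM in silica 24 h and 521 to 612 RPM in silica 48 h libraries. Their untreated means were 314 RPM for miR-122-5p, 167 for miR-451a and 2.39 for miR-486a-5p. Of the 3 fibroblast and endothelial and the 3 epithelial markers, 2 each were listed in all libraries. The fibroblast and endothelial markers summed to 150 to 272 RPM in untreated, 135 to 350 in silica 24 h and 134 to 230 in silica 48 h libraries. Of these, miR-126a-3p had an untreated mean of 204 RPM. The epithelial markers summed to 29.0 to 44.8, 13.2 to 30.8 and 29.3 to 55.5 RPM in the same order. In the 3 untreated libraries miR-145a-5p was at 0 counts, at a limit of 3 counts or 0.198 to 0.267 RPM. The part of cells or serum in the family values below was not tested.

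The 288 families together held 1192801 counts, from 59839 in untreated library 2 to 280936 in untreated library 1, or 0.416% to 1.86% of a library. Their summed level was 18582, 4163 and 7619 RPM in untreated libraries 1, 2 and 3, 9882, 10178 and 11575 RPM in the silica 24 h libraries, and 17077, 5584 and 10760 RPM in the silica 48 h libraries. The 24 h libraries lay close together, within the wide range of the untreated ones, and libraries 1 and 2 marked the highest and the lowest value of both other groups. The mean of the untreated libraries was 10121 ± 7528 RPM, that of the 24 h libraries 10545 ± 904 and that of the 48 h libraries 11140 ± 5756 (SD, n = 3). By a two-sided exact permutation test of these n = 3 against n = 3 libraries, the comparison of 24 h with untreated had p = 1, that of 48 h with untreated p = 0.9 and that of 48 h with 24 h p = 0.8, where the design allows no p below 0.1.

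A few families held most of these counts. Y RNA held 71.2%, the 6 other ribonucleoprotein scaffold families 6.12%, the 5 transfer-messenger RNA families 16.2%, mascRNA 2.63%, the 10 retrovirus elements 1.38% and the 198 other families named for bacteria, viruses, plants, fungi or protists 2.24%. All 67 remaining families together held 0.183%. At the other end, 157 families had under 10 counts over the 9 libraries and 57 had 1 count, while 18 had at least 1000. Only 43 families were listed in all 9 libraries, and 99 were listed in a single one.

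**Figure D1:**
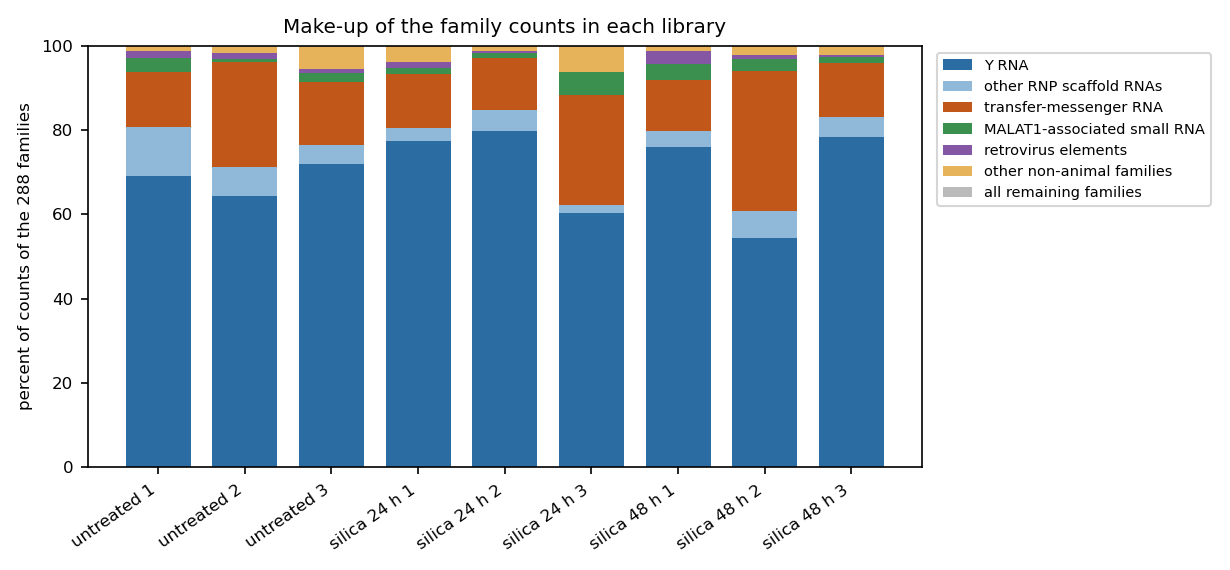
Share of the counts of the 288 families (y axis, percent) that each kind of family took in each of the 9 libraries (x axis), as stacked bars that add up to 100. Y RNA was the largest block in every library, at 54.4% to 79.8%, and transfer-messenger RNA was the second largest, at 12.1% to 33.2%.

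The make-up varied between libraries of a group. Y RNA took 68.4% ± 3.86 of the family counts in untreated, 72.5% ± 10.6 in silica 24 h and 69.5% ± 13.2 in silica 48 h libraries (SD, n = 3). The share was lowest in silica 48 h library 2, at 54.4%, where transfer-messenger RNA took 33.2%. Silica 24 h library 3, at 60.3% Y RNA and 26.0% transfer-messenger RNA, and untreated library 2, at 64.3% and 24.8%, came next. The 3 libraries with the most transfer-messenger RNA among their family counts thus came from 3 different groups.

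The number of families listed can depend on depth, so it was computed as the number expected when every library is reduced to the smallest total. At that depth 100.4 ± 12.5 families were expected in untreated, 106.7 ± 6.78 in silica 24 h and 109.9 ± 10.8 in silica 48 h libraries. The exact permutation p for n = 3 against n = 3 was 0.6 between 24 h and untreated, 0.5 between 48 h and untreated, and 0.6 between the silica times. Without this step, 114 ± 6.56, 114 ± 2.65 and 128.3 ± 2.08 families were listed, and the 3 silica 48 h libraries (126 to 130 families) lay above the 6 others (107 to 120), at an exact permutation p of 0.1 against either group, the lowest the design allows. The 48 h group includes the deepest library of the series (library 2, 18.7 M, 130 families). Its libraries 1 and 3, at 11.4 M and 11.5 M, listed 129 and 126 families, and untreated library 1, at 15.1 M, listed 115. Reduced to the smallest total, silica 48 h libraries 1, 2 and 3 had 115.8, 97.5 and 116.5 expected families. The untreated libraries then had 103.0, 86.8 and 111.5 and the silica 24 h libraries 109.1, 99.1 and 112, so that the groups overlapped.

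For the tests of single families, 42 of the 288 passed the filter on low counts, and they held at least 99.5% of the family counts in every library. The passing families were set by level over the groups, so the counts below describe the 42 and not the 246 that were too rare. The quasi-likelihood test of edgeR, with p-values adjusted by Benjamini-Hochberg over all 2114 tested features of every RNA class, called 0 of the 42 families at 24 h against untreated, where 0% of all features were called. It likewise called 0 of 42 at 48 h against untreated (0% of all features) and 0 of 42 at 48 h against 24 h (0% of all features). At an unadjusted p under 0.05, 1 of 42 passed at 24 h against untreated beside 6.01% of all features, 1 of 42 at 48 h against untreated beside 3.22%, and 1 of 42 at 48 h against 24 h beside 9.04%. DESeq2 called 0, 0 and 1 of the 42 in the same order, beside 0.568%, 0.284% and 1.42% of all features. At an unadjusted p under 0.05 it had 0, 3 and 4 of the 42, beside 7.66%, 3.45% and 11.7%. The spread between libraries was wide, with a square root of the common dispersion of 1.37, where a value of 1 would mean that the libraries of a group vary by as much as their mean.

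The direction of the 42 families was mixed. At 24 h against untreated 28 were higher and 14 lower, with a median log2 fold change of 0.32 beside 0.15 over all tested features, and none is called. This direction moved with the scaling and with single libraries: with TMM factors 19 were higher and 23 lower, at a median of −0.07, and the median of all features moved to −0.21. Without silica 24 h library 3, 23 of 56 families were higher. Other settings moved it the other way. Scaled by mature microRNA, 30 were higher and 12 lower, and with the replicate number as a block 33 and 9. Without untreated library 1, 39 were higher and 13 lower. At 48 h against untreated 17 were higher and 25 lower (median −0.21, beside −0.12 over all features), but without untreated library 1 it was 35 higher and 17 lower. At 48 h against 24 h 13 were higher and 29 lower (median −0.76, beside −0.38 over all features), and without silica 24 h library 3 it was 28 higher and 28 lower. The 3 comparisons share groups: each group enters 2 of them.

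Groups that do not overlap, with all 3 libraries of one group above all 3 of the other, were counted as a description. At 24 h against untreated 0 of the 42 families were separated in this way, beside 13.4% of all tested features. At 48 h against untreated 2 of 42 (4.76%) were separated, beside 4.02% of all features. Between 48 h and 24 h 5 of 42 (11.9%) were separated, beside 16.4%. The shares of the families were thus near or below those of all features in each comparison.

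**Figure D2:**
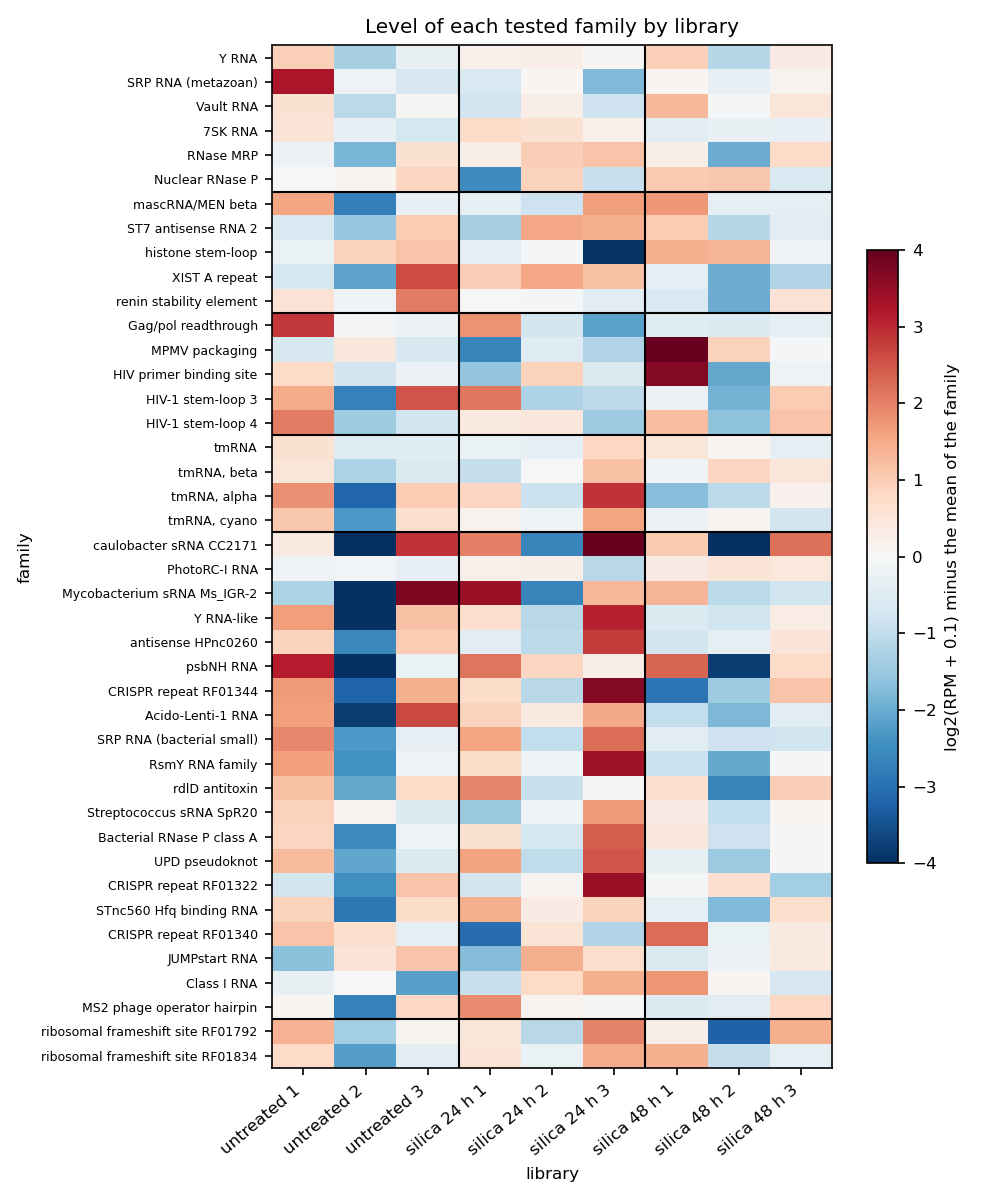
Level of each of the 42 tested families (rows) in the 9 libraries (columns), as log2(RPM + 0.1) minus the mean of the family over the libraries; red is above and blue below that mean. Horizontal lines part ribonucleoprotein scaffold RNAs, long noncoding and messenger RNA segments, retrovirus elements, transfer-messenger RNAs, other non-animal families and unplaced families; many rows of the lower blocks are blue in untreated library 2 and red in silica 24 h library 3.

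Of the 7 ribonucleoprotein scaffold families of animal cells, 6 were tested. At 24 h against untreated 3 were higher and 3 lower, and in each of the 2 other comparisons 4 were higher and 2 lower; none passed the adjusted test, and 1 family changed sides under another scaling at 24 h against untreated (2 higher under TMM) and at 48 h against 24 h (3 higher when scaled by mature microRNA). Telomerase RNA, the template RNA of telomerase, had 1 count in all and was not tested.

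Y RNA (RF00019) was at 12837, 2676 and 5480 RPM in untreated libraries 1, 2 and 3. It was at 7636, 8126 and 6976 RPM in the silica 24 h libraries and at 12953, 3036 and 8419 RPM in the silica 48 h libraries. The 24 h values again lay within the range of both other groups, and library 2 was the lowest of the untreated and of the 48 h group. The log2 fold change was 0.12 ± 0.59 (SE) at 24 h against untreated, 0.22 ± 0.59 at 48 h against untreated and 0.10 ± 0.59 at 48 h against 24 h, each smaller than its standard error. The lowest and the highest library differed by a factor of 4.84, while the fitted fold change was at most 1.16.

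Signal recognition particle RNA (RF00017) was at 1824 RPM in untreated library 1, and at 167 and 119 RPM in untreated libraries 2 and 3. The silica 24 h libraries held 126, 200 and 56.2 RPM and the silica 48 h libraries 200, 151 and 211 RPM. Untreated library 1 alone, with 27570 counts, thus stood above the other 8 libraries, which shared a range. The log2 fold change at 24 h against untreated was −2.47 ± 0.96 (unadjusted p = 0.0256, edgeR adjusted p = 0.749), the lowest p of the 42 families in that comparison. Without untreated library 1 it was −0.17. At 48 h against untreated the log2 fold change was −1.91 ± 0.94, and without untreated library 1 it was 0.39.

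Vault RNA (RF00006) was at 265, 81.7 and 181 RPM in untreated, 101, 209 and 98.6 RPM in silica 24 h and 423, 169 and 245 RPM in silica 48 h libraries. The groups overlapped, with the highest value in silica 48 h library 1. At 48 h against 24 h the log2 fold change was 1.03 ± 0.62 (edgeR adjusted p = 0.595), and its sign was the same with each library left out (0.60 to 1.48).

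7SK RNA (RF00100) was at 60.7, 33.6 and 25.9 RPM in untreated, 72.1, 65.6 and 49.2 RPM in silica 24 h and 31.2, 34.7 and 34.2 RPM in silica 48 h libraries. All 3 libraries of 48 h lay below all 3 of 24 h, while the untreated libraries spanned both. The log2 fold change at 48 h against 24 h was −0.90 ± 0.59 (edgeR adjusted p = 0.644), and −1.05 to −0.78 with each library left out. The 48 h values were close to each other, a narrower range than for the other scaffold RNAs.

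RNase MRP (RF00030), the RNA of an enzyme that cuts precursor ribosomal RNA, and nuclear RNase P (RF00009), which trims precursor tRNAs, were rare. RNase MRP was at 6.88, 2.23 and 12.5 RPM in untreated, 9.73, 16.2 and 18.0 RPM in silica 24 h and 9.79, 1.98 and 14.1 RPM in silica 48 h libraries. Here too library 2 was the lowest of the untreated and of the 48 h group. Nuclear RNase P lay between 0.275 and 4.40 RPM, with overlapping groups.

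**Figure D3:**
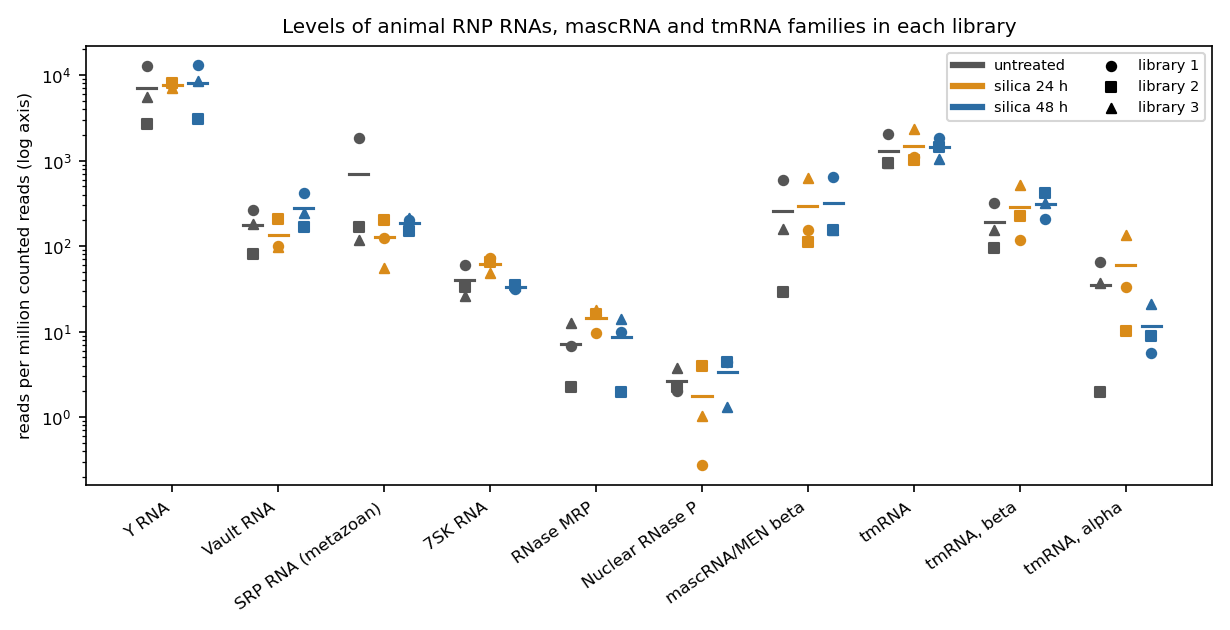
Level (RPM, log axis) of 10 families in each library, as points coloured by group and shaped by library number, with short lines at the group means (n = 3). Untreated library 1 stands apart from the other 8 libraries for signal recognition particle RNA, and the groups overlap for most of the families, while for 7SK RNA the silica 48 h points lie below those of 24 h.

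Levels of different families were compared per 100 bases of the mouse gene, since longer RNAs can give more fragments. On this scale, which assumes that all of a gene can be counted, the median over the 9 libraries was 7136 RPM per 100 bases for Y RNA, 266 for mascRNA, 127 for vault RNA and 55.5 for signal recognition particle RNA. It was 10.5 for 7SK RNA, 3.61 for RNase MRP and 0.698 for nuclear RNase P. Y RNA was above mascRNA in 9 of 9 libraries, mascRNA above vault RNA in 8, vault RNA above signal recognition particle RNA in 8, and that RNA above 7SK RNA in 9. 7SK RNA was above RNase MRP in 9 of 9, and RNase MRP above nuclear RNase P in 8. The Y RNA length used was the mean of Rny1 and Rny3, 107 bases. The order of the families was thus the same in most libraries, although each level varied between them.

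Counts of Y RNA and of the other scaffold RNAs were also set against each other within a library, which needs no scaling. The count ratio of Y RNA to vault RNA ran from 17.9 to 75.4 with a median of 34.4, and that to signal recognition particle RNA from 7.04 (untreated library 1) to 124 (silica 24 h library 3). These families thus did not keep a fixed ratio from library to library.

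Of the 30 families for stretches of long noncoding RNAs, 3 were tested and 0 called in any comparison. mascRNA (RF01684, a model that also covers the related RNA at the end of MEN beta) was at 591, 29.4 and 158 RPM in untreated, 154, 111 and 629 RPM in silica 24 h and 651, 154 and 154 RPM in silica 48 h libraries. Each group held 1 library well above its others, number 1 in the untreated and 48 h groups and number 3 at 24 h. Against these spreads, the log2 fold change was 0.20 ± 1.02 at 24 h against untreated, 0.30 ± 1.02 at 48 h against untreated and 0.10 ± 1.02 at 48 h against 24 h.

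The 2 other tested stretches were rare. The A repeat of the X inactivation RNA XIST (RF02162) was at 0.529, 0.139 and 6.15 RPM in untreated, 1.93, 2.91 and 2.21 RPM in silica 24 h and 0.699, 0.161 and 0.349 RPM in silica 48 h libraries. All 3 libraries of 48 h were below all 3 of 24 h (log2 fold change −2.52 ± 1.62, edgeR adjusted p = 0.638), with 174 counts in all. A conserved region of ST7 antisense RNA 2 (RF02182) lay between 0.557 and 5.34 RPM, with overlapping groups. The CDKN2B antisense RNA 1 stretch that the naming rule chose had 26 counts in all and was not tested.

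Of the 20 families for control elements inside animal messenger RNAs, 2 were tested and 0 called. The histone stem-loop (RF00032), the element that ends histone messenger RNAs without a poly(A) tail, was at 1.19, 2.78 and 3.30 RPM in untreated, 1.10, 1.39 and 0 RPM in silica 24 h and 4.02, 3.86 and 1.31 RPM in silica 48 h libraries. The 0 in silica 24 h library 3 allows up to 0.389 RPM (3 counts, counting error only). The groups overlapped, and the log2 fold change at 48 h against 24 h was 1.86 ± 1.46. The renin stability element (RF00180) lay between 0.107 and 3.39 RPM, and the elements of MAT2A and n-myc, 34 and 35 counts, were not tested.

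Transfer-messenger RNA (tmRNA) is the bacterial RNA, partly like a tRNA and partly like a messenger, that frees ribosomes stalled on a broken messenger. It was the most counted kind of family with a bacterial name. The main family (RF00023) was at 2032, 934 and 947 RPM in untreated, 1101, 1018 and 2335 RPM in silica 24 h and 1854, 1426 and 1035 RPM in silica 48 h libraries. It was the steadiest of the abundant families, with a factor of 2.50 between its lowest and its highest library, beside 4.84 for Y RNA. Its log2 fold change was 0.19 ± 0.50 at 24 h against untreated, 0.14 ± 0.50 at 48 h against untreated and −0.05 ± 0.50 at 48 h against 24 h.

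The betaproteobacterial tmRNA family (RF01850) was at 321, 96.0 and 152 RPM in untreated, 119, 226 and 519 RPM in silica 24 h and 208, 414 and 318 RPM in silica 48 h libraries. The alphaproteobacterial family (RF01849) was at 65.9, 1.95 and 37.1 RPM in untreated, 33.6, 10.1 and 137 RPM in silica 24 h and 5.59, 8.95 and 20.9 RPM in silica 48 h libraries. Together with the cyanobacterial family (RF01851, 0.974 to 15.6 RPM), all 4 tested tmRNA families were highest in silica 24 h library 3 and lowest in untreated library 2. The count ratio of the main to the betaproteobacterial family ran from 3.25 to 9.73, so that the tmRNA families did not move in a fixed ratio. The alphaproteobacterial family had a log2 fold change of −2.35 ± 1.21 at 48 h against 24 h (edgeR adjusted p = 0.504), and −0.89 at the nearest to 0 with a library left out. At 24 h against untreated all 4 had a positive log2 fold change (median 0.48), but only 2 of 4 under TMM scaling, and none passed the adjusted test.

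The other families named for bacteria, archaea, plants, fungi or protists numbered 129, of which 15 were tested. Of these 15, 12 were higher and 3 lower at 24 h against untreated (median log2 fold change 0.72; 8 and 7 under TMM scaling), and 2 were higher and 13 lower at 48 h against 24 h (median −1.42); none passed the adjusted test. Against this, 3 were higher and 12 lower at 48 h against untreated (median −0.51). Over all tested features, 53.97% were higher at 24 h against untreated, 41.15% at 48 h against 24 h and 43.42% at 48 h against untreated. The splits at 24 h against untreated and at 48 h against 24 h share the 24 h libraries. They were not counted for these 15 with single libraries left out. The family of the Caulobacter small RNA CC2171 (RF01867) was at 15.7, 0.139 and 91.4 RPM in untreated, 50.5, 1.87 and 289 RPM in silica 24 h and 25.3, 0.375 and 57.0 RPM in silica 48 h libraries. In every group library 2 was the lowest and library 3 the highest. The log2 fold change at 48 h against 24 h was −2.05 ± 1.91, and 0.08 without silica 24 h library 3.

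The Mycobacterium small RNA family Ms_IGR-2 (RF02467) was at 4.50, 0.557 and 149 RPM in untreated, 121, 1.66 and 27.4 RPM in silica 24 h and 28.2, 5.20 and 6.28 RPM in silica 48 h libraries. The bacterial Y RNA-like family (RF02553), a model separate from the animal Y RNA, was at 30.3, 0.348 and 21.2 RPM in untreated, 15.2, 4.30 and 80.2 RPM in silica 24 h and 6.38, 5.41 and 11.5 RPM in silica 48 h libraries. Both were lowest in untreated library 2, where animal Y RNA was lowest too, but library 2 was not low in animal Y RNA at 24 h. Among the 31 CRISPR repeat families, 3 were tested, and the most counted, RF01344, reached 52.7 RPM in silica 24 h library 3 beside 0.348 to 13.2 RPM in the other 8.

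This pattern was counted over all families named for organisms other than animals, retroviruses left out. Of 35 such families with at least 50 counts, 18 were highest in silica 24 h library 3 and 21 were lowest in untreated library 2. Of 11 animal families at the same minimum, 1 was highest in silica 24 h library 3, 4 were highest in silica 48 h library 1, and 5 were lowest in untreated library 2. Of 4 families that fitted no list, 2 were highest in silica 24 h library 3 and 1 was lowest in untreated library 2. The same count was not made over all features. Silica 24 h library 3 is also the shallowest library, has the lowest mature microRNA level (280063 RPM), and holds the highest summed level of the 3 serum and red blood cell markers (1413 RPM), which was lowest, at 165 RPM, in untreated library 2. Of these markers miR-451a followed that order (846 and 60.2 RPM), whereas miR-122-5p was highest in silica 24 h library 1 (693 RPM) and miR-486a-5p in untreated library 1 (3.57 RPM). The part of these features of the libraries in the family levels was not tested.

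Of the tested families named for bacteria, 2 were separated between groups. Over all tested features, 4.02% were separated at 48 h against untreated and 16.4% at 48 h against 24 h. PhotoRC-I RNA (RF01716), a model from marine microbes, was at 44.7, 45.1 and 38.8 RPM in untreated, 57.1, 57.6 and 22.6 RPM in silica 24 h and 61.3, 69.6 and 66.1 RPM in silica 48 h libraries. All 3 libraries of 48 h were above the 6 others, and silica 24 h library 3, the highest for 18 of the 35 families above, was the lowest here. Its log2 fold change was 0.61 ± 0.58 at 48 h against untreated (edgeR adjusted p = 1) and 0.52 ± 0.58 at 48 h against 24 h (edgeR adjusted p = 0.912). Acido-Lenti-1 RNA (RF01687) was at 10.2, 0.139 and 20.8 RPM in untreated, 6.06, 4.16 and 9.47 RPM in silica 24 h and 1.57, 0.858 and 2.36 RPM in silica 48 h libraries. Its 48 h libraries were below those of 24 h (log2 fold change −2.04 ± 1.28, edgeR adjusted p = 0.625).

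The 10 retrovirus families are structured elements of retroviral genomes, such as packaging signals, primer binding sites and the site where translation reads through from Gag to Pol; 5 of them were tested. At 24 h against untreated 5 of 5 were lower (median log2 fold change −0.83; 4 of 5 when scaled by mature microRNA), and none passed the adjusted test. Without untreated library 1 the log2 fold change turned positive for RF01073 (0.68) and RF00375 (0.44). That of RF00459 stayed negative with each library left out (−1.59 to −0.58). The summed level was 306, 65.0 and 64.3 RPM in untreated, 145, 55.7 and 24.4 RPM in silica 24 h and 508, 59.8 and 59.3 RPM in silica 48 h libraries. In each group library 1 was the highest.

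The packaging signal named for Mason-Pfizer monkey virus (RF00459) was at 10.6, 22.8 and 10.5 RPM in untreated, 2.57, 11.4 and 7.14 RPM in silica 24 h and 333, 31.0 and 15.9 RPM in silica 48 h libraries. All 3 libraries of 48 h were above all 3 of 24 h, and silica 48 h library 1 was more than 10 times any other library. Its log2 fold change was 4.16 ± 1.18 at 48 h against 24 h (unadjusted p = 0.00442, edgeR adjusted p = 0.445) and 3.11 ± 1.12 at 48 h against untreated (unadjusted p = 0.0175, edgeR adjusted p = 1). Without silica 48 h library 1 these values were 1.73 and 0.68. DESeq2 called the family at 48 h against 24 h (adjusted p = 0.00246), as did edgeR's test without a filter on low counts (adjusted p = 0.0312), where 1 of 288 families and 0.204% of all 14210 features were called.

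Other retrovirus elements were also high in silica 48 h library 1. The primer binding site named for HIV (RF00375) was at 18.1, 6.05 and 8.73 RPM in untreated, 3.49, 19.8 and 6.88 RPM in silica 24 h and 132, 2.41 and 8.99 RPM in silica 48 h libraries. Its log2 fold change at 48 h against 24 h was 2.24 ± 1.28, and −0.82 without silica 48 h library 1. The gammaretrovirus encapsidation signal (RF00374) reached 13.3 RPM in silica 48 h library 1 beside 0 to 3.70 RPM in the other 8. A retroviral primer binding site pairs with a cellular tRNA, and the tRNA class was highest in the same library, at 7886 RPM beside 1801 to 5211 RPM in the other 8. The piRNA class was highest there too, at 44951 RPM beside 16502 to 28951 RPM. So was the repeat class, at 280857 RPM beside 222165 to 269823 RPM. The part of any of these classes in the counts of these elements was not tested.

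The Gag/pol readthrough site (RF01073) had another pattern. It was at 267, 35.3 and 32.1 RPM in untreated, 131, 22.8 and 8.43 RPM in silica 24 h and 27.003, 25.6 and 28.9 RPM in silica 48 h libraries. All 3 libraries of 48 h were below all 3 untreated ones, and library 1 of the untreated and 24 h groups stood far above the others. Its log2 fold change at 48 h against untreated was −2.04 ± 1.08 (edgeR adjusted p = 1), and −0.31 without untreated library 1.

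**Figure D4:**
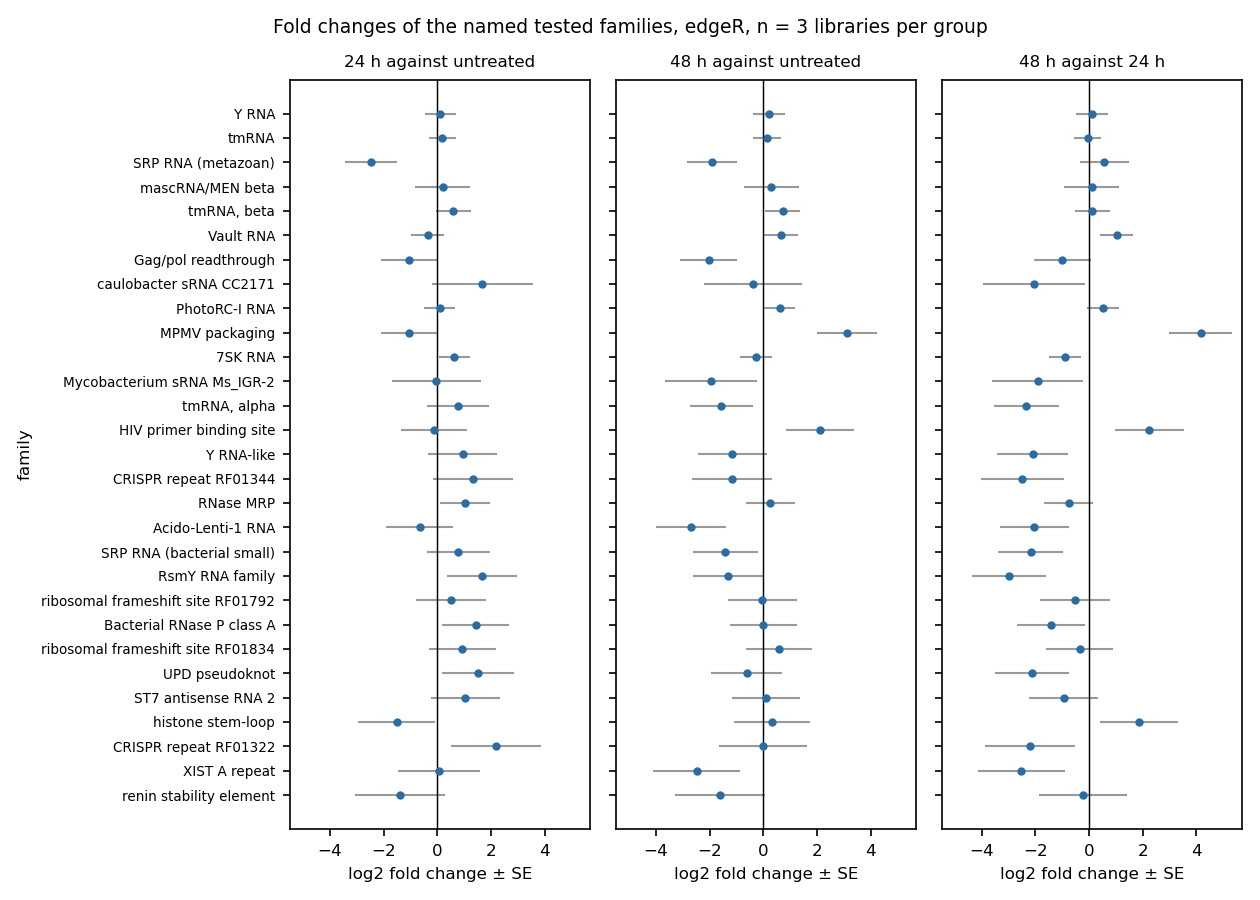
Log2 fold change with its standard error (x axis) from edgeR for the 29 named families that were tested (rows, by level), in 3 panels for 24 h against untreated, 48 h against untreated and 48 h against 24 h. Y RNA and tmRNA at the top lie close to 0 and signal recognition particle RNA below them lies to the left in the comparisons with untreated (−2.47 ± 0.96 and −1.91 ± 0.94), while the MPMV packaging signal is farthest to the right in the panel of 48 h against 24 h, at 4.16 ± 1.18.

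The 18 families that fitted no list, mostly ribosomal frameshift sites, held 981 counts. The 2 tested ones, RF01792 and RF01834, lay between 0.214 and 11.4 RPM and between 0.348 and 5.58 RPM, each highest in silica 24 h library 3. Their log2 fold changes were smaller than the standard errors in all 3 comparisons. The sites RF01768 and RF01833, which the naming rule also chose, had 92 and 67 counts and were not tested.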

How the data were processed

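Small RNA libraries of 9 exosome samples were made by the BGISEQ-500 protocol, per the labels' protocols; Trim Galore, Bowtie, HTSeq and the build mm10 are named in the submitters' processing notes, without versions. Per the file headers, each deposited table gives the count of reads for each RNA and a second, scaled column; that deposited column equalled counts in RPM of the header total within 0.005, with no length correction, and was not tested. The sources used here do not give how a read matching several families was assigned. Tables were joined by Rfam identifier, an unlisted family was taken as 0 counts, and groups came from the labels.

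Counts were tested with edgeR 4.0.16 in R 4.3.3 (quasi-likelihood, header totals as library sizes, factors of 1, filterByExpr with a minimum count of 10, all 9 libraries and all RNA classes in 1 fit, adjusted p under 0.05), after a test on simulated data. The simulated spread was smaller than that of these libraries, so the simulation does not show what the fit can recover here. DESeq2 1.42.0 was an alternative; the others are in the closing section. For sums and numbers of families the test was an exact permutation of the libraries, two-sided. The members and lists were chosen with earlier results of these data known; families were placed in lists by name. Named families were the 10 with the lowest p in each comparison, the 15 highest in level, up to 4 of each list and any called.

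Deviations from the group means over the tested features were correlated between same-numbered libraries. Between 48 h and untreated r was 0.135, 0.555 and 0.360, and between 24 h and untreated 0.058, 0.303 and 0.245. Between 48 h and 24 h r was −0.100, 0.237 and 0.143. Untreated library 1 had a higher r with silica 48 h library 3 (0.157) than with library 1 of that group. The labels state no pairing. Libraries of a group differed beyond sampling noise (chi-square per degree of freedom at least 100.1), so all were counted as separate. If the repetitions were not separate cultures, p-values measure technical spread. Intervals and floors of 3 counts cover counting error only. The sequence of 1 reference gene is not reported here.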

Additional observations from a re-analysis of the deposited data

How the results depend on the processing

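edgeR called 0 of the families, beside 0% of all features, in every comparison under TMM, DESeq2 size factors, scaling by mature microRNA, fits of the 2 groups or of these families alone, and with each library left out (lowest and highest 0). The exceptions were DESeq2 and the fit with no filter on low counts, which each called 1 family at 48 h against 24 h, RF00459 (log2 fold change 4.42, adjusted p = 0.00246, and 4.16, adjusted p = 0.0312), beside 1.42% and 0.204% of all features. With the replicate number as a block, 0 families were called in each comparison (lowest adjusted p 0.32, 1 and 0.271), beside 0%, 0% and 0.142% of all features. The block changed no call of a family. It moved 24 h against untreated from 28 to 33 of 42 higher, 48 h against untreated from 17 to 22, and 48 h against 24 h from 13 to 11.

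The log2 ratio of summed levels was 0.059 at 24 h against untreated, 0.14 at 48 h against untreated and 0.079 at 48 h against 24 h. It changed sign without Y RNA in the comparisons with untreated (−0.075 and −0.056), and at 48 h against 24 h when scaled by mature microRNA (−0.13) or within replicate numbers as a block (−0.061). Leaving out 1 library gave −0.31 to 0.84, −0.31 to 0.92 and −0.37 to 0.40. The difference in number of families, 6.32, 9.53 and 3.21, became 0 at 24 h against untreated without thinning, and 0.109 at 48 h against untreated and −6.11 at 48 h against 24 h with a minimum of 3 counts; leaving out 1 library gave −0.49 to 11.9, 2.71 to 15.8 and −0.61 to 9.45. No paired form of that test was planned.

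Of 87 log2 fold changes of named families, 48 changed sign under at least 1 alternative (114 of 1476 values), none past the threshold. In 12 of these values the fold change as reported was larger than its standard error. With 1 library left out, signal recognition particle RNA ran from −2.41 to 0.39, its bacterial small form from −1.94 to 0.33 and RsmY from −1.92 to 0.17 at 48 h against untreated, positive without untreated library 1. At the same comparison Ms_IGR-2 ran from −3.16 to 2.38 and the XIST A repeat from −3.12 to 0.26, positive without untreated library 3, and Ms_IGR-2 was 0.059 with the replicate block. At 24 h against untreated RsmY (−0.14 to 3.16) and RF01322 (−0.28 to 3.79), and at 48 h against 24 h CC2171 (−3.15 to 0.075) and RF01322 (−2.84 to 0.26), turned without silica 24 h library 3. The HIV primer binding site ran from −0.95 to 2.69 at 48 h against untreated and from −0.82 to 3.20 at 48 h against 24 h, negative without silica 48 h library 1. The cause was not tested. Depth limits the 246 untested families, and 3 libraries a group with this spread leave large standard errors.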
